A study of Bos taurus with 16 samples.

Results

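The 4 enzymes of oestradiol synthesis CYP19A1 (aromatase), HSD17B1, HSD17B7 and POR are described here. They were chosen by name for their role, and they are 4 of the 20629 features (12429 genes with a symbol and 8200 unmatched transcripts) counted in 16 bovine RNA sequencing libraries. Of these libraries, 9 carried the label control and 7 the label treatment. Each was made from granulosa cells spun down from the fluid aspirated from the dominant follicle of lactating Holstein cows, in a cohort of 45 cows. All follicles were sampled at 63 ± 3 days after calving, 72 h after prostaglandin F2α and just before a second injection of gonadotropin-releasing hormone, so both groups had the same hormone schedule. The title concerns lasting differences in granulosa cells after uterine disease, and what the label treatment stands for is not stated. No label links a library to a particular cow, so p-values measure only the spread between these libraries.

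Granulosa cells line the inside of the follicle and are its main source of oestradiol. Theca cells, in the outer layer of the follicle wall, make androgens, and granulosa cells turn them into oestrogens. Aromatase, a cytochrome P450 of the endoplasmic reticulum, converts androstenedione to oestrone and testosterone to oestradiol. POR, the cytochrome P450 oxidoreductase, passes electrons from NADPH to aromatase and to the other P450 enzymes of that membrane. HSD17B1 reduces oestrone to the more potent oestradiol. HSD17B7 can carry out the same reduction and is also a 3-ketosteroid reductase of cholesterol synthesis. Follicle-stimulating hormone raises CYP19A1 in the growing follicle, and the surge of luteinising hormone shuts it down.

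The labels give blood as the tissue of every sample, against the protocols' granulosa cells, and the libraries were of 2 kinds. INHA, the inhibin alpha subunit and a granulosa marker, was at 1759 to 3041 CPM (counts scaled to a library total of 1e6) in 9 libraries and at 0.404 to 111 CPM in the other 7. The 9 are called granulosa-rich (control replicates 2, 3, 4, 7 and 8 with treatment replicates 4, 5, 6 and 7), and the 7 leukocyte-rich (control replicates 1, 5, 6 and 9 with treatment replicates 1, 2 and 3). The 11 granulosa markers summed to between 53603 and 139453 CPM in the first kind and between 179 and 5424 CPM in the second. The 11 leukocyte markers summed to between 24.9 and 1247 CPM and between 6218 and 10946 CPM. Among the granulosa markers GATM went the other way, with medians of 32 and 78.3 CPM, and AMHR2 overlapped between the kinds. The 7 theca and stroma markers summed to between 178 and 2945 CPM in granulosa-rich and between 400 and 10975 CPM in leukocyte-rich libraries. The kinds were read from the data and are no groups of the design. Total counts per library ranged from 8111862 to 14348753, and 3 counts are worth 0.212 to 0.375 CPM. Such limits cover counting error only. In RNA from a mixture of cells, fewer cells of a type and less RNA per cell cannot be told apart.

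CYP19A1 was among the most abundant transcripts of the granulosa-rich libraries. The control libraries held 28576 CPM in replicate 2, 16568 in replicate 3, 22402 in replicate 4, 15060 in replicate 7 and 25293 in replicate 8. The treatment libraries held 8439 CPM in replicate 4, 22128 in replicate 5, 22085 in replicate 6 and 276 in replicate 7. Treatment replicates 5 and 6 therefore lay inside the control range, replicate 4 below it and replicate 7 far below it. Aromatase was between the 4th and the 6th most abundant feature in 8 of these 9 libraries, where it took 0.844 to 2.86% of all counts. In treatment replicate 7 it ranked 674th and took 0.0276%.

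The leukocyte-rich libraries held far less CYP19A1. The levels were 16.1 CPM in control replicate 1, 1.08 in replicate 5, 2.34 in replicate 6 and 36.7 in replicate 9. The levels in treatment were 1027 CPM in replicate 1, 15.4 in replicate 2 and 7.26 in replicate 3. Only treatment replicate 1 reached the range of the granulosa-rich libraries, above its lowest member, treatment replicate 7. The other 6 lay below all 9. The median was 22085 CPM in granulosa-rich and 15.4 CPM in leukocyte-rich libraries, a ratio of 1434. Even the lowest value, 1.08 CPM, rested on 12 counts.

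HSD17B1, which makes oestradiol from oestrone, separated the kinds completely. Control granulosa-rich libraries held 225 CPM in replicate 2, 280 in replicate 3, 165 in replicate 4, 98.3 in replicate 7 and 288 in replicate 8. Treatment granulosa-rich libraries held 134 CPM in replicate 4, 289 in replicate 5, 146 in replicate 6 and 9.05 in replicate 7. As for CYP19A1, the library far below the rest was treatment replicate 7, replicates 4 and 6 lay within the control range and replicate 5 just above it.

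In the leukocyte-rich libraries HSD17B1 was at 6.78, 5.66, 3.88 and 1.87 CPM in control replicates 1, 5, 6 and 9. It was at 6.56, 0.983 and 3.88 CPM in treatment replicates 1, 2 and 3. All 7 lay below the lowest granulosa-rich library. The ratio of the medians, 165 over 3.88 CPM, was 42.4. Of 9632 features with at least 10 counts in 7 libraries, 6.13% had every granulosa-rich library above every leukocyte-rich one, and 11.5% had the reverse. Since the kinds were read from INHA in the same libraries, these differences carry no test.

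HSD17B7, the enzyme shared with cholesterol synthesis, varied least of the 4 within a kind. In granulosa-rich control libraries it was at 64.7, 72.6, 83.0, 75.0 and 83.1 CPM in replicates 2, 3, 4, 7 and 8. In granulosa-rich treatment libraries it was at 52.6, 106, 77.1 and 80.7 CPM in replicates 4, 5, 6 and 7. The lowest and the highest of the 9 were both treatment libraries, with the controls in between. Treatment replicate 7, so low in CYP19A1 and HSD17B1, was in the middle here.

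Leukocyte-rich libraries held HSD17B7 at 26.2, 25.9, 28.9 and 24.5 CPM in control replicates 1, 5, 6 and 9, and at 30.8, 27.4 and 56.0 CPM in treatment replicates 1, 2 and 3. Of the 7, 6 lay below every granulosa-rich library. The exception was treatment replicate 3, just above treatment replicate 4 of the other kind. The ratio of the medians was 2.81, against 42.4 for HSD17B1.

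POR, the electron donor, was present in every library. Granulosa-rich controls held 748, 629, 401, 195 and 336 CPM in replicates 2, 3, 4, 7 and 8, and granulosa-rich treatment libraries held 685, 573, 774 and 243 CPM in replicates 4, 5, 6 and 7. The groups overlapped, with control replicate 7 and treatment replicate 7 the lowest. Leukocyte-rich controls held 186, 186, 223 and 263 CPM in replicates 1, 5, 6 and 9, and leukocyte-rich treatment libraries held 299, 215 and 112 CPM in replicates 1, 2 and 3. Only 3 of these 7 lay below all granulosa-rich libraries, and the ratio of the medians was 2.67.

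**Figure D1:**
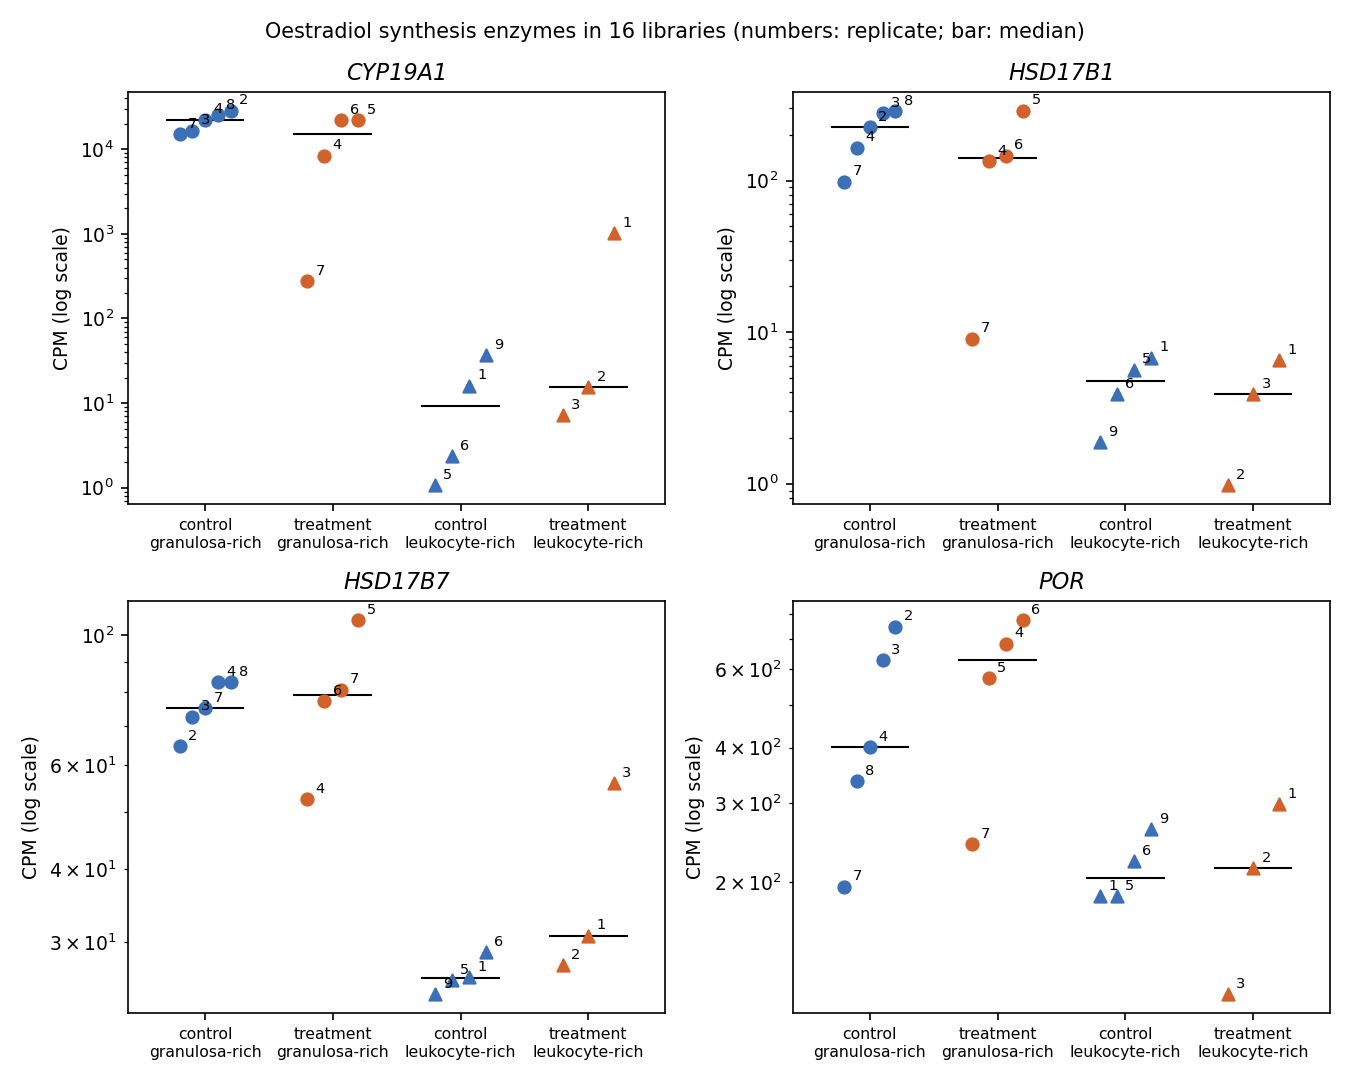
CPM of CYP19A1, HSD17B1, HSD17B7 and POR on a log scale in each of the 16 libraries, split by label and kind of library; each point is a library, numbers give the replicate and the bar is the median. CYP19A1 and HSD17B1 differ by far more between the kinds than HSD17B7 and POR, and treatment replicate 7 is the low point of both among the granulosa-rich libraries (276 and 9.05 CPM).

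On the scale of mean log2 CPM (prior count 1), the granulosa-rich libraries were higher by 9.60 for CYP19A1, 5.21 for HSD17B1, 1.33 for HSD17B7 and 1.17 for POR. With library sizes adjusted by the trimmed mean of M-values (TMM), the differences were 9.75, 5.37, 1.49 and 1.33, in the same order. CYP19A1 differed most between the kinds and POR least. Of 15 genes of cholesterol synthesis, where HSD17B7 also acts, 8 had every granulosa-rich library above every leukocyte-rich one, among them CYP51A1, a P450 that itself draws electrons from POR, and 0 had the reverse. The shares over all 9632 features were 6.13% and 11.5%. The median ratio over the 15 was 7.86. Among 9 measured partners and competitors of POR, SQLE and CYP51A1 were higher in every granulosa-rich library. HMOX1, the haem oxygenase that POR also supplies, and CYP20A1 were higher in every leukocyte-rich one.

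The ratio of CYP19A1 to INHA, in which sequence length cancels between libraries, had similar medians in both kinds, though most leukocyte-rich values rest on few INHA counts. The log2 ratio was 3.23, 3.03, 3.10, 2.77 and 3.71 in granulosa-rich control replicates 2, 3, 4, 7 and 8. It was 2.26, 3.39, 3.05 and -3.12 in granulosa-rich treatment replicates 4, 5, 6 and 7. Thus 8 of 9 libraries lay between 2.26 and 3.71, and treatment replicate 7 lay more than 5 log2 units below them, with an INHA level of 2395 CPM that was inside the range of the rest.

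In the leukocyte-rich libraries the log2 ratio of CYP19A1 to INHA was 2.42, -0.32, 2.54 and 2.95 in control replicates 1, 5, 6 and 9. It was 3.20, 3.75 and 2.73 in treatment replicates 1, 2 and 3. Of the 7, 6 fell within or just above the range of those 8 granulosa-rich libraries, and the medians of the kinds were 2.73 and 3.05. The ratio in control replicate 5 rests on 12 counts of CYP19A1. INHA itself had 41, 15, 5 and 38 counts in control replicates 1, 5, 6 and 9. It had 1002, 14 and 13 counts in treatment replicates 1, 2 and 3, so ratios to INHA in this kind are imprecise outside treatment replicate 1. HSD17B1 behaved otherwise: its log2 ratio to INHA had a median of -3.76 in granulosa-rich libraries (-8.05 to -2.75) and of 1.17 in leukocyte-rich libraries (-4.09 to 3.26). Treatment replicate 1, at -4.09, was the leukocyte-rich library with the most INHA (111 CPM). The log2 ratio of HSD17B1 to CYP19A1 likewise had a median of -6.46 (-7.26 to -4.93) in the first kind and -1.25 (-7.29 to 2.39) in the second.

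**Figure D2:**
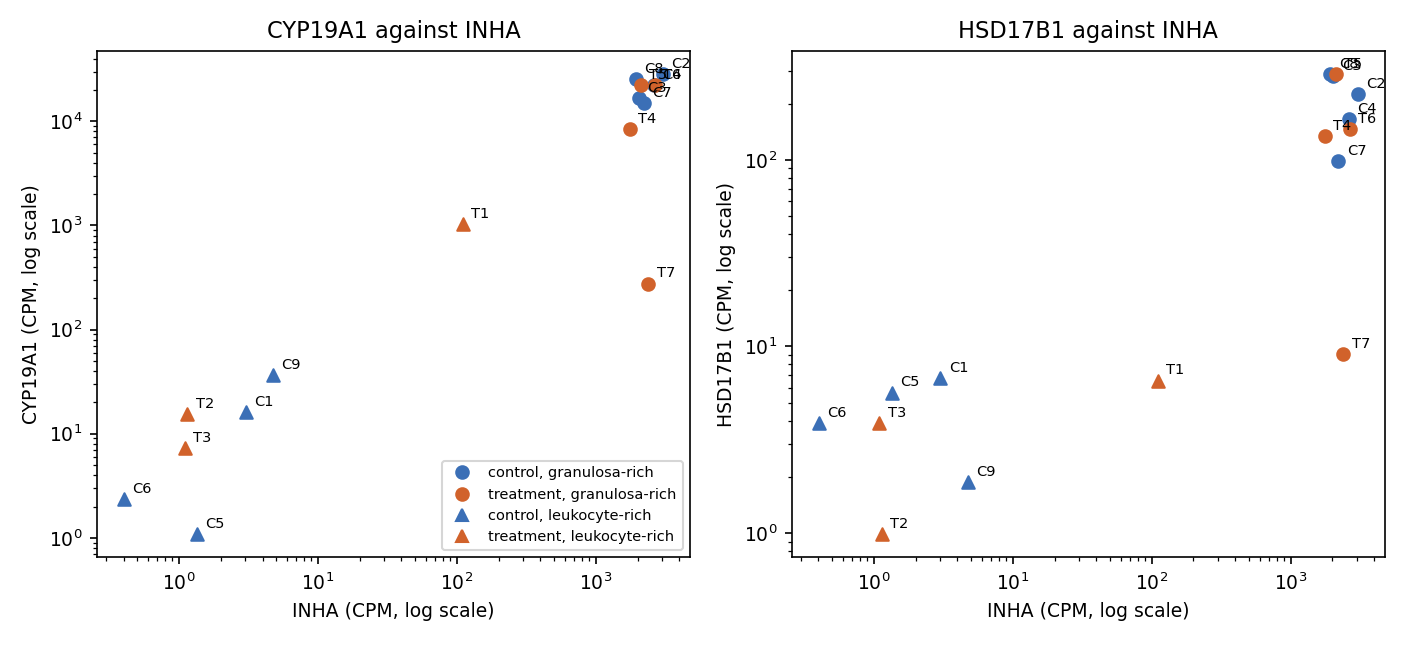
CYP19A1 (left) and HSD17B1 (right) against INHA in CPM, both axes on log scales; each point is a library, labelled C for control or T for treatment with its replicate number, with circles for granulosa-rich and triangles for leukocyte-rich libraries. CYP19A1 follows INHA through both kinds except in T7 (276 CPM at 2395 CPM of INHA) and C5. HSD17B1 stays between 0.983 and 6.78 CPM in all leukocyte-rich libraries, T1 included. INHA rests on only 5 to 41 counts in the leukocyte-rich libraries other than T1.

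Treatment was first compared with control over all 16 libraries. No enzyme differed by more than the spread between libraries. For CYP19A1 the mean log2 CPM was 9.17 ± 6.32 (SD, n = 9) for control and 9.55 ± 4.80 (SD, n = 7) for treatment. For HSD17B1 it was 5.15 ± 3.00 (SD, n = 9) and 4.35 ± 3.10 (SD, n = 7). Both groups held libraries of both kinds. HSD17B7 was at 5.56 ± 0.81 and 5.80 ± 0.72, and POR at 8.27 ± 0.76 and 8.41 ± 1.02 (SD, n = 9 and n = 7).

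In edgeR's quasi-likelihood test on these counts, the log2 fold change of treatment over control was -0.75 ± 1.74 (SE) for CYP19A1 and -0.50 ± 1.21 for HSD17B1. It was 0.07 ± 0.44 for HSD17B7 and 0.16 ± 0.43 for POR. The adjusted p was 1 for all 4. Of 9653 features tested, 0 (0%) passed an adjusted p of 0.05 and 163 (1.69%) had an unadjusted p under 0.05, none of them among the 4. With library kind added as a covariate the value for CYP19A1 turned to 1.72, and with limma-voom to 0.29, so its direction over all libraries depended on the fit.

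The comparison closest to the title's question is that within the 9 granulosa-rich libraries, 5 control and 4 treatment. Mean log2 CPM of CYP19A1 was 14.35 ± 0.40 (SD, n = 5) for control and 12.50 ± 3.00 (SD, n = 4) for treatment. HSD17B1 was at 7.62 ± 0.64 (SD, n = 5) and 6.41 ± 2.20 (SD, n = 4). In both genes the spread of the treatment group was several times that of control, and treatment replicate 7 was its lowest library. HSD17B7 was at 6.24 ± 0.15 and 6.26 ± 0.42, and POR at 8.70 ± 0.77 and 9.03 ± 0.75 (SD, n = 5 and n = 4).

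The fitted log2 fold change was -0.82 ± 0.83 (SE) for CYP19A1, with a 95% interval from -2.65 to 1.00 and an adjusted p of 0.984 in edgeR's quasi-likelihood test. For HSD17B1 it was -0.58 ± 0.69 (interval -2.10 to 0.95, adjusted p = 0.984). HSD17B7 was at -0.09 ± 0.31 (interval -0.79 to 0.60, adjusted p = 0.988), and POR at 0.18 ± 0.38 (interval -0.65 to 1.01, adjusted p = 0.988). Here 0 of 9272 features (0%) passed the threshold, and 433 (4.67%) had an unadjusted p under 0.05. The intervals of CYP19A1 and HSD17B1 reached below a 4-fold decrease, and those of HSD17B7 and POR were narrower. In 0 of the 4 genes did the groups separate without overlap, in either kind of library. Over the 9632 features counted, 0.54% had every treatment library below and 1.28% above every control in the granulosa-rich kind, against 1.78% and 2.07% in the leukocyte-rich kind.

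Without treatment replicate 7 the fitted value was -0.42 for CYP19A1 and -0.19 for HSD17B1. Without treatment replicate 5, the highest of its group in both genes, each was -1.36. The 3 remaining treatment libraries without replicate 7 had a mean of 13.97 ± 0.80 log2 CPM (SD, n = 3) for CYP19A1 and 7.48 ± 0.61 for HSD17B1. Limma-voom, which works on log values, gave -2.06 for CYP19A1 (adjusted p = 0.893).

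**Figure D3:**
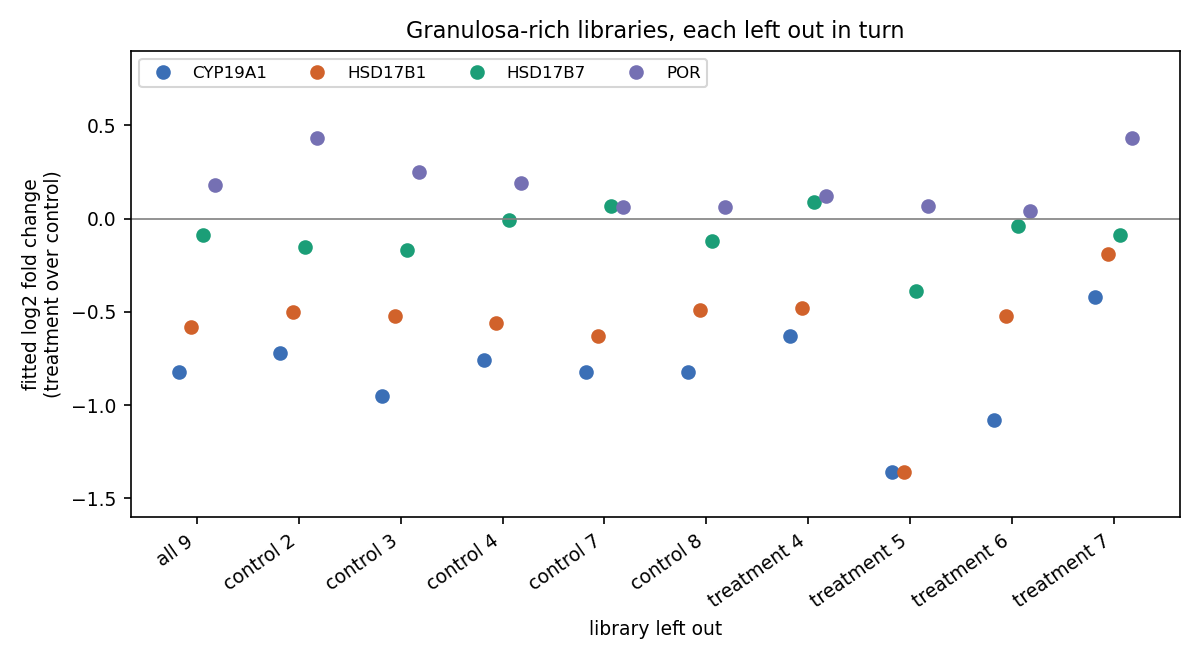
Fitted log2 fold change of treatment over control (y axis) for the 4 enzymes in the granulosa-rich libraries, with all 9 libraries and with each left out in turn (x axis). CYP19A1 stays below 0 throughout (-1.36 to -0.42), as does HSD17B1 (-1.36 to -0.19), POR stays above 0 (0.04 to 0.43) and HSD17B7 falls on both sides (-0.39 to 0.09).

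No marker of another cell type passed the test between the groups in these 9 libraries, and the summed levels overlapped. The 11 leukocyte markers summed to 24.9 to 714 CPM (median 172) in control and to 309 to 1247 CPM (median 420) in treatment. All 10 that could be tested had a positive fold change. CD163 was at 0 in all 5 controls and near the floor in treatment, at 0.0989 to 1.53 CPM (median 0.298). There 3 counts are worth 0.236 to 0.33 CPM. The 7 theca and stroma markers summed to 428 to 2945 CPM (median 824) in control and 178 to 979 CPM (median 308) in treatment, with 5 of 6 tested below 0. Their medians did not all fall. In control and treatment they were 378 and 26.8 CPM for CYP17A1 and 13.9 and 3.48 for DCN. They were 16.1 and 42.1 CPM for COL1A1, 27.6 and 28 for COL1A2, 18.6 and 43.2 for COL3A1, and 70.1 and 109 for INSL3. Their part in the values of the 4 enzymes was not tested. The granulosa marker sums overlapped, at 88251 to 137571 CPM in control and 53603 to 139453 CPM in treatment.

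Within the 7 leukocyte-rich libraries, 4 control and 3 treatment, no enzyme passed the test either. Mean log2 CPM of CYP19A1 was 2.68 ± 2.32 (SD, n = 4) for control and 5.61 ± 3.84 (SD, n = 3) for treatment. Its log2 fold change was 4.62 ± 1.91 (SE), with an unadjusted p of 0.0451 and an adjusted p of 1 in edgeR's quasi-likelihood test. Without treatment replicate 1 the fold change was -0.29. That library held 1027 CPM of CYP19A1, and its 11 granulosa markers summed to 5424 CPM against 179 to 823 CPM in the other 6. INHA had a similar fold change, 3.97 ± 1.67 (adjusted p = 1). The 7 theca and stroma markers summed to 525 to 2264 CPM (median 1559) in control and 400 to 10975 CPM (median 7795) in treatment libraries of this kind. The part of granulosa or other cells in the CYP19A1 value was not tested.

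HSD17B1 had a fold change of -0.28 ± 0.68 in the leukocyte-rich libraries, HSD17B7 of 0.55 ± 0.30 and POR of -0.06 ± 0.29, each with an adjusted p of 1 in edgeR's quasi-likelihood test. The value for HSD17B7 was 0.08 without treatment replicate 3, its highest library of this kind. Of 9912 features 0 (0%) passed, and 259 (2.61%) had an unadjusted p under 0.05.

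The difference between the kinds was tested as an interaction over all 16 libraries. The effect of treatment on CYP19A1 was lower in granulosa-rich than in leukocyte-rich libraries by a log2 value of -5.40 ± 1.98 (SE), with an unadjusted p of 0.0155 and an adjusted p of 0.911 in edgeR's quasi-likelihood test. The value was -0.58 without treatment replicate 1, so it rested on that library. HSD17B1 gave -0.24 ± 1.05, HSD17B7 -0.62 ± 0.48 and POR 0.28 ± 0.52. Of 11468 features 0 (0%) passed, and 608 (5.3%) had an unadjusted p under 0.05.

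**Figure D4:**
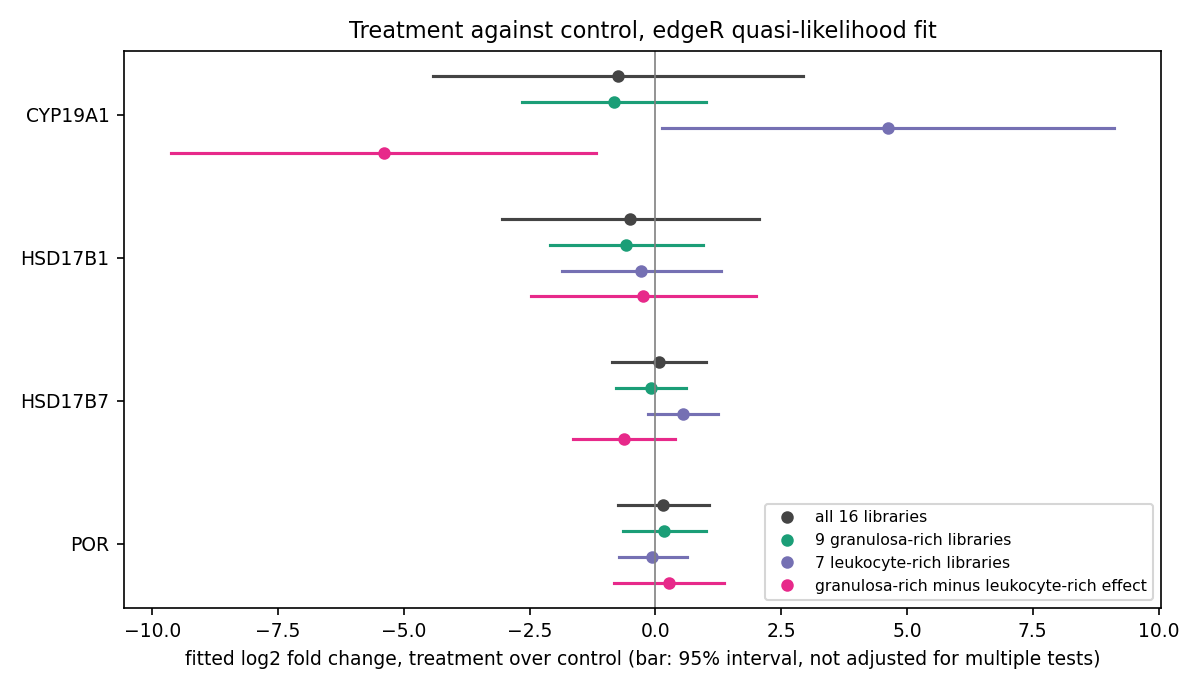
Fitted log2 fold change of treatment over control with its 95% interval (x axis) for each enzyme (y axis) in all 16, the 9 granulosa-rich and the 7 leukocyte-rich libraries, and the difference between the 2 kinds. The intervals of CYP19A1 are the widest; only those for the leukocyte-rich libraries (0.13 to 9.11) and for the difference (-9.62 to -1.18) leave out 0, and neither passed after adjustment.

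Treatment replicate 7 was the lowest or highest library for several genes of the pathway around the 4 enzymes, and not in that pathway alone. Of 11 granulosa markers 5 were lowest in it: INHBA, INHBB, AMHR2, FSHR and SERPINE2. INHBA was at 10234 CPM there, against 35444 to 66709 CPM in the other 8 granulosa-rich libraries. Of 5 epithelial markers KRT8 and KRT18 were highest in it, and so was KDR, the only endothelial marker counted. KRT19 and PIGR were highest in control replicate 3, and EPCAM in control replicate 8. The part of its cell content in the values below was not tested. The median of the other 8 granulosa-rich libraries was 80-fold higher for CYP19A1 (22107 against 276 CPM) and 21.5-fold higher for HSD17B1 (195 against 9.05 CPM). In treatment replicate 4, HSD17B7 was the only enzyme of the 4 that was lowest, as 4.03% of 7744 features were there. In treatment replicate 7 HSD17B7, at 80.7 CPM, was close to the median of the other 8, 76.1 CPM. POR, at 243 CPM, was above their lowest value of 195 CPM, that of control replicate 7. This order depended on the scaling: with TMM-adjusted sizes POR was lowest in treatment replicate 7, at 244 CPM. FSHR, the receptor of follicle-stimulating hormone, was at 110 CPM, against 361 to 543 CPM in the other 8. HSD3B1, which makes androstenedione and progesterone from their precursors, was at 24 CPM against 93.4 to 978 CPM.

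Of the 7 genes of substrate supply, STAR, CYP11A1, HSD3B1 and CYB5A were lower in this library than in all 8 others. CYP17A1 was higher, at 736 CPM. For CYP11A1 and CYP17A1 the margins were small. CYP11A1 was at 2635 CPM against 2737 CPM in control replicate 3, and CYP17A1 was at 700 CPM in control replicate 4. Over all libraries, TMM multiplied library sizes by 0.986 for treatment replicate 7, 1.11 for control replicate 3 and 0.809 for control replicate 4. Neither order held with sizes adjusted in this way. Of 9 counted regulators of aromatase, FSHR, NR5A1, GATA4 and CTNNB1 were the lowest in treatment replicate 7. Of 5 counted genes that the surge of luteinising hormone induces, AREG, TNFAIP6 and PTX3 were the highest there, and ADAMTS1 and VCAN were not. ADAMTS1 was at 603 CPM against 8.75 to 3564 CPM in the other 8 (median 87.4). VCAN was at 74.7 CPM against 11.5 to 184 CPM (median 112). AREG, an epidermal growth factor-like ligand, was at 940 CPM against 0.989 to 78.9 CPM, and TNFAIP6, a hyaluronan-binding protein of the expanding cumulus, at 25541 CPM against 64.4 to 9088 CPM. Over 7744 features, 10.8% were lowest and 16.2% highest in this library. Other granulosa-rich libraries were extreme as well: treatment replicate 5 was lowest for 29.8% and highest for 16.5%, and control replicate 7 lowest for 32.5%. Of the 9 regulators of aromatase, treatment replicate 5 was lowest for 3 and highest for 3. The values of treatment replicate 7 are those of 1 library, picked out after its CYP19A1 level was seen, and they carry no test.

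**Figure D5:**
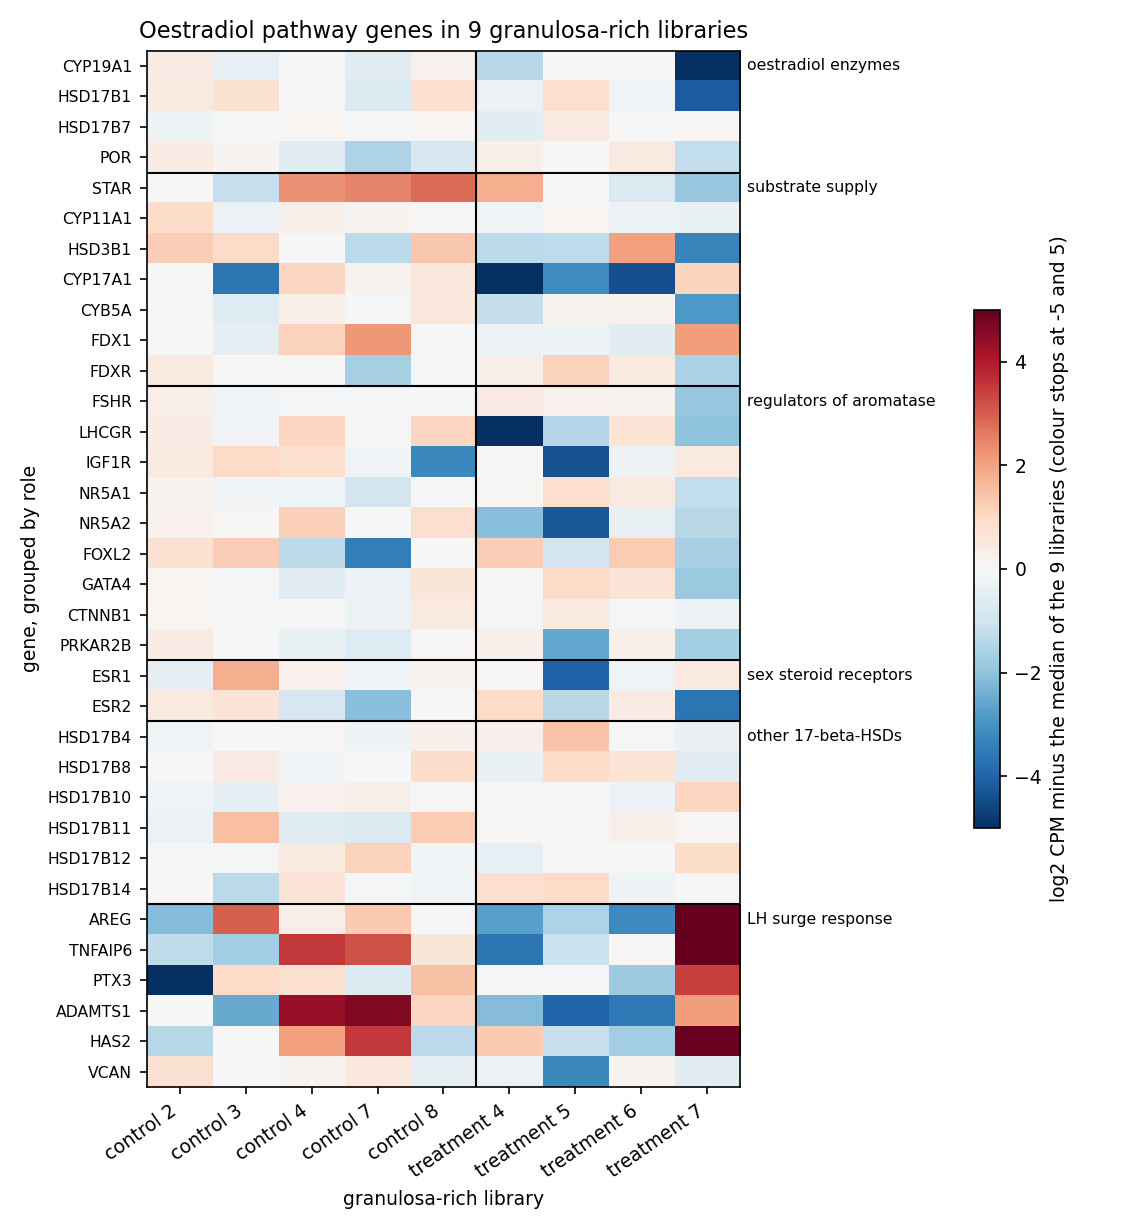
Log2 CPM minus the median of the 9 granulosa-rich libraries (colour) for the oestradiol enzymes and related genes (rows, grouped by role), with the 5 control libraries left of the line and the 4 treatment libraries right of it. Treatment replicate 7 is blue for CYP19A1 and HSD17B1, FSHR and HSD3B1, and red for AREG and TNFAIP6; NR5A2 is lower in all 4 treatment libraries than in all 5 controls.

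No gene of the surrounding pathway passed the test between treatment and control in the granulosa-rich libraries, and each list is therefore described by its fitted log2 fold changes. Over all 9272 features 47.1% were below 0, with a median of 0.04. Of the 7 substrate supply genes 6 were below 0, with a median of -0.61. STAR, which brings cholesterol into the mitochondrion, had a fold change of -1.82 ± 0.92 (SE), and CYP11A1, which cleaves its side chain, -0.61 ± 0.32. ESR1, the oestrogen receptor alpha, gave -1.01 ± 0.69 (-0.54 without control replicate 3). STAR was at -2.81 without treatment replicate 4 and at -1.48 without control replicate 7.

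Regulators of aromatase were below 0 in 6 of 9 tested, with a median of -0.22. The lowest p belonged to NR5A2 (LRH-1), an orphan nuclear receptor that binds the ovarian promoter of CYP19A1. NR5A2 was at 37.8, 33.9, 73.5, 32.4 and 58.5 CPM in control replicates 2, 3, 4, 7 and 8, and at 7.58, 1.63, 24.8 and 12.4 CPM in treatment replicates 4, 5, 6 and 7. Every treatment library was lower than any control library, as was the case for 0.54% of the 9632 features counted, and the same held with TMM-adjusted library sizes. Its fold change was -2.28 ± 0.63 (SE), with an unadjusted p of 0.00438 and an adjusted p of 0.983 in edgeR's quasi-likelihood test.

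LHCGR, the receptor of luteinising hormone, gave -1.63 ± 0.88 and PRKAR2B, a regulatory subunit of protein kinase A, -0.65 ± 0.48. LHCGR was at -2.87 without treatment replicate 6 and at -1.22 without treatment replicate 4. PRKAR2B was at -0.34 without treatment replicate 5. NR5A1 (SF-1), the close relative of NR5A2 that also drives CYP19A1, and FSHR overlapped between the groups. NR5A1 was at 109 to 230 CPM in control and 86.5 to 371 CPM in treatment, and FSHR at 361 to 507 CPM and 110 to 543 CPM.

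Other members of the 17β-hydroxysteroid dehydrogenase family were measured beside HSD17B1 and HSD17B7. Of 10, 6 had enough counts to test, 3 below and 3 above 0 (median -0.02). HSD17B12, a fatty acid elongation enzyme and the most abundant, gave -0.43 ± 0.47, HSD17B11 -0.54 ± 0.49 and HSD17B4, of peroxisomal beta-oxidation, 0.42 ± 0.42. HSD17B2, which oxidises oestradiol back to oestrone, reached at most 5.64 CPM in granulosa-rich libraries. HSD17B3, the testicular enzyme that makes testosterone, reached at most 1.22 CPM.

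Few of the genes of oestrogen inactivation could be tested. SULT1E1, the oestrogen sulphotransferase, was at most 0.185 CPM in granulosa-rich libraries, under the level of 3 counts in each. The only testable gene of this list was GUSB, a lysosomal enzyme that frees steroids from glucuronides. GUSB was at 68.5 to 98.4 CPM in control and 99.0 to 195 CPM in treatment, with a fold change of 0.68 ± 0.27 (unadjusted p = 0.0309, adjusted p = 0.983, edgeR's quasi-likelihood test). With TMM-adjusted library sizes the groups overlapped. GUSB was also higher in every leukocyte-rich library (203 to 778 CPM) than in every granulosa-rich one, and its part of leukocyte RNA was not tested. SRD5A3, of the androgen reductases, gave 0.32 ± 0.72.

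Cholesterol synthesis genes, the other pathway of HSD17B7, were below 0 in 9 of 15 (median -0.06). HMGCS1, an early synthase of the pathway, gave 1.04 ± 0.48 (0.20 without treatment replicate 5), and MSMO1, a sterol demethylation enzyme, -0.75 ± 0.36 (-0.49 without that replicate). Partners and competitors of POR split 4 to 4 (median -0.08), with HMOX1 at 0.92 ± 0.42, CYP2S1 at -2.42 ± 1.41 and CYP51A1 at -0.24 ± 0.25. HMOX1 was at 0.46 without treatment replicate 4, and CYP51A1 at -0.08 without control replicate 7. Genes induced by luteinising hormone split 2 below and 4 above 0 (median 0.64). VCAN gave -1.13 ± 0.53, ADAMTS1 -3.55 ± 1.75 and TNFAIP6 0.49 ± 1.57. Without treatment replicate 7, ADAMTS1 gave -6.83 and TNFAIP6 -3.55, so the direction of TNFAIP6 rested on that library. Without control replicate 7, ADAMTS1 gave -2.65.

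Across the 9 granulosa-rich libraries CYP19A1 and HSD17B1 rose and fell together (Spearman's rho 0.72, Pearson's r 0.95 on log2 CPM). The r was 0.45 without treatment replicates 4 and 7, the libraries farthest from the median, so most of it rested on them. HSD17B7 and POR had a rho of -0.43. CYP19A1 had a rho of 0.33 with INHA (0.60 with TMM-adjusted sizes), 0.38 with FSHR (r 0.91, and 0.72 without the same 2 libraries), 0.47 with NR5A1 and 0.73 with LHCGR. For LHCGR the rho was 0.60 with TMM-adjusted sizes, and the r was 0.43, or 0.29 without the same 2 libraries. Of 10 regulators of aromatase, 9 had a positive rho with CYP19A1 (median 0.42). Over all 4570 features compared, 2262 had a positive rho (median 0.00). The values of this list were not computed with TMM-adjusted sizes. In the 7 leukocyte-rich libraries CYP19A1 and INHA had a rho of 0.79 and an r of 0.92 (0.93 without control replicate 5 and treatment replicate 1). These values describe libraries that share their scaling and depth, and they carry no p.

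On CPM without TMM adjustment, HSD17B7 showed little likeness to the cholesterol pathway in these 9 libraries. Its rho with these genes was not computed with TMM-adjusted sizes. The scaling can matter for it: its rho with INHA was 0.00 without and 0.73 with the adjustment. The unadjusted rho of HSD17B7 was positive with 2 of the 15 genes (median -0.48), and over all of the 4570 features the median was -0.12. POR had a positive rho with 14 of the 15 (median 0.48), but its median over all features was also positive, at 0.35.

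The genes most like each enzyme were sought among 4570 features with a symbol and a mean of at least 3 log2 CPM. For CYP19A1 these were HEY2 (rho 0.97), CA11 (0.95), DLL4 (0.93), TTPA (0.92) and ACADSB (0.90). HEY2 is a target of Notch signalling and DLL4 a Notch ligand. For HSD17B1 they were PEF1 (1.00), ACP1 (0.97), COX5B (0.97), TMEM47 (0.95) and NDUFS3 (0.95), where COX5B and NDUFS3 are subunits of the respiratory chain. HSD17B7 was most like ATP5MK (0.98), POLR2D (0.95), COX7A2 (0.88), ATP6V0E1 (0.88) and PAIP2 (0.87). POR was most like EIF4EBP1 (0.98), MARK1 (0.98), CBR4 (0.97), ZCCHC3 (0.95) and TMEM129 (0.95). With TMM-adjusted sizes only 1, 0, 2 and 3 of the 5 names stayed the same for CYP19A1, HSD17B1, HSD17B7 and POR.

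Over the 7 leukocyte-rich libraries CYP19A1 was most like MFSD14A, PHF13, OAS1Y and C1H3orf70 (rho 1.00 each) and NSUN3 (0.96), among 4634 features. With TMM-adjusted sizes 3 of these 5 stayed the same.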

How the data were processed

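RNA was measured in 16 libraries. Per the labels' protocols, libraries were made from 200 ng of total RNA (integrity number at least 7) by poly(A) selection and 12 PCR cycles with an unstranded kit, which cannot separate reads of overlapping or antisense genes. The submitters' processing notes name cutadapt, Bowtie2 and SAMtools. For their versions, the genome build, the annotation and reads with several matches, nothing is given in the sources used here. CYP19A1 is uncertain to that extent, because RefSeq's table lists the name of its pseudogene, CYP19P1, as a synonym.

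The deposited files hold raw read counts per RefSeq accession, 1 file per library. Of 27306 accessions, 133 were genomic records (0.712 to 1.92% of counts), which were not used. By accession, 18973 of 27173 transcripts matched a symbol in RefSeq's table of ARS-UCD2.0, used for names only, and held 96.3% of the transcript counts. Counts were summed per gene. No sequences or transcript lengths were used, so levels are compared mainly between libraries. Where genes are ranked by abundance, the ranks are by CPM and not adjusted for transcript length.

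Members and lists were chosen with earlier results of these data known. Libraries above 1000 CPM of INHA were called granulosa-rich and those under 200 CPM leukocyte-rich. The comparison of treatment with control used the quasi-likelihood test of edgeR 4.0.16 in R 4.3.3 (robust, TMM scaling, filterByExpr), with Benjamini-Hochberg adjustment over all features and a threshold of 0.05. Counts simulated with the real means and library sizes were used to try the test: with a planted log2 change of 3, 45.4% of 97 features were recovered in granulosa-rich libraries, and with 1.5, 8% of 100. No library was a duplicate of another (lowest chi-square per feature 57.7). Genes named from each list were its most abundant member and the 2 of lowest p in granulosa-rich libraries, and the 5 most like each enzyme by rho. FSHR, NR5A1, HSD3B1, AREG, SQLE, CYP20A1, HSD17B2, HSD17B3 and SULT1E1 were added after their values were seen. Some genes that the rule names are not reported here. Alternatives were other scalings and filters, DESeq2 1.42.0, limma-voom (limma 3.58.1), the kind of library as a covariate, the replicate number as a block and each library left out in turn. The fits of the interaction without single libraries, and the values without treatment replicate 7, were added after the data were seen.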

Additional observations from a re-analysis of the deposited data

How the results depend on the processing

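Over 694 alternative values for the 4 enzymes, the named genes and the counts of calls, 655 kept their direction and side of the threshold, 30 changed sign and 9 moved, and none passed the threshold in edgeR. DESeq2 called 3 features over all libraries, 21 in granulosa-rich, 1 in leukocyte-rich libraries and 27 for the difference between kinds, where edgeR called 0; none was one of the 4 enzymes, of which CYP19A1 had no p from DESeq2 in leukocyte-rich libraries and an adjusted p of 0.186 for the difference. Over all libraries CYP19A1 turned to 0.29 with limma-voom and 1.72 with the kind as a covariate. HSD17B7 turned to 0.06 in granulosa-rich libraries with library size alone as the scaling, and TNFAIP6 to -0.87 with limma-voom. The cause was not tested. With TMM-adjusted sizes, 1, 0, 2 and 3 of the 5 genes most like CYP19A1, HSD17B1, HSD17B7 and POR stayed the same, and 3 of 5 for CYP19A1 in leukocyte-rich libraries. With each library left out in turn, calls stayed at 0 and the fold changes that changed sign ranged as follows. Over all libraries HSD17B7 ranged from -0.22 to 0.28 and POR from -0.04 to 0.38. In granulosa-rich libraries HSD17B7 ranged from -0.39 to 0.09, HSD17B12 from -0.77 to 0.09, HSD17B4 from -0.27 to 0.63, SRD5A3 from -0.05 to 0.72 and TNFAIP6 from -3.55 to 1.06. In leukocyte-rich libraries CYP19A1 ranged from -0.29 to 5.64, HSD17B1 from -0.86 to 0.19 and POR from -0.39 to 0.20. For the difference between kinds HSD17B1 ranged from -1.06 to 0.32 and POR from -0.03 to 0.56.

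The deviations of same-numbered control and treatment libraries had correlations of 0.64, 0.37 and 0.53 for numbers 1, 4 and 7, whose libraries were of the same kind, and of -0.65, -0.35, -0.47 and -0.66 for numbers 2, 3, 5 and 6, whose kinds differed. The sign follows the kind, so this check does not decide whether numbers pair libraries, and the labels do not say that they do. With the replicate number as a block, calls stayed at 0 and the values were -1.67 for CYP19A1, -1.45 for HSD17B1, 0.03 for HSD17B7 and 0.03 for POR over all libraries. In granulosa-rich libraries, where only numbers 4 and 7 occur in both groups, the block gave -4.11, -2.37, -0.80 and 0.02, and turned HSD17B11 to 0.17, HSD17B4 to -0.46, CYP2S1 to 0.63 and TNFAIP6 to -3.17. No paired analysis was possible for the leukocyte-rich libraries because their groups share only number 1. CYP19A1 had at least 3512 counts in every granulosa-rich library and as few as 12 in a leukocyte-rich one. The part of depth in its intervals was not tested.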
